A study of Mus musculus with 3 samples.

Results

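The primitive streak regulators examined here were 10 genes chosen by symbol from the 32285 features of the deposited matrices: T, Eomes, Mixl1, Fst, Cdx2, Evx1, Wnt3, Mesp1, Gsc and Nkx1-2. Each symbol matched 1 feature. The cells were E14tg2a mouse embryonic stem cells, an established line, with both copies of Fgf4 disrupted (Fgf4 -/-), a genotype shared by all 3 libraries. All had been plated in ES medium with LIF and then spent 24 h in N2B27, a defined serum-free medium, with heparin at 1 µg/ml and Chiron, an inhibitor of the kinase GSK3 that stabilises beta-catenin. The 3 libraries differed in added FGF4, at 0, 5 or 50 ng/ml, and each was a 10x Genomics 3' single-cell library. The labels did not say how many mutant clones were used, and cells had been detached with trypsin or Accutase.

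In the embryo the primitive streak is the site where epiblast cells leave the epithelium and become mesoderm and endoderm. WNT3 and Nodal set off the streak, and T (Brachyury), Eomes and Mixl1 are among the transcription factors first switched on there. FGF signalling through ERK maintains T and lets cells move out of the streak. The homeobox genes Evx1, Cdx2 and Nkx1-2 mark its posterior part and the caudal epiblast, Gsc marks its anterior part, and Mesp1 marks the mesoderm that leaves early. Cultured stem cells given a GSK3 inhibitor can switch on several of these genes, and the doses here ask how their transcripts relate to FGF4.

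The libraries held 373, 874 and 975 cells at 0, 5 and 50 ng/ml, with median depths of 107873, 91764 and 87334 unique molecular identifiers (UMIs) per cell and no barcode shared between libraries. Each dose was 1 library without replicates, so no test between doses was possible. All intervals are 95% intervals for counting error only, and "higher" and "lower" compare these libraries. Those for levels and ratios treat UMIs as independent, so they are too narrow for genes whose UMIs clump in cells. Fgf4 transcript was still counted, at 51.7, 24.9 and 20.4 CPM (UMIs per 1000000 UMIs of the library), but a 3' tag may lie outside the disrupted part and so checks nothing. The 10 stem cell markers listed were all above 1 CPM in every library, with summed levels of 4884 to 5298 CPM, against 23.4 to 62.3 CPM for the 10 streak regulators. In the library without FGF4 13 cells (3.49%) had fewer than 40000 UMIs, against 168 (19.2%) and 182 (18.7%) with FGF4. Cells above 10% mitochondrial UMIs numbered 12, 133 and 153.

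The start regions of 8 of the 10 genes were in the RefSeq promoter table (GRCm38.p6, the assembly also called mm10), which covers 250 bases before to 50 after each start. Mixl1 and Fst had no entry. The 4 below are shown because T and Evx1 were higher and Wnt3 and Gsc lower with FGF4. They run 5′ to 3′ on the gene's strand, and capitals mark matches on either strand to CTTTGA (TCF/LEF core), GGTGTG (T-box core), GGGCGG (GC box), CCGGAA (ETS core) or ATCCACA (FOXH1 core). No matches overlapped in these windows.
T, chr17:8434173-8434472, plus strand: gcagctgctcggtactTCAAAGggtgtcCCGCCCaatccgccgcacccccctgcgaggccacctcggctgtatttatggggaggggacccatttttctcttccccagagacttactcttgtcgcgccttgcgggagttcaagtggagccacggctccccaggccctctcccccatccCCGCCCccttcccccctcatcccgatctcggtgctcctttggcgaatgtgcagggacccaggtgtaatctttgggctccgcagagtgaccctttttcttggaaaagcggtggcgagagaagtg
Evx1, chr6:52313248-52313547, plus strand: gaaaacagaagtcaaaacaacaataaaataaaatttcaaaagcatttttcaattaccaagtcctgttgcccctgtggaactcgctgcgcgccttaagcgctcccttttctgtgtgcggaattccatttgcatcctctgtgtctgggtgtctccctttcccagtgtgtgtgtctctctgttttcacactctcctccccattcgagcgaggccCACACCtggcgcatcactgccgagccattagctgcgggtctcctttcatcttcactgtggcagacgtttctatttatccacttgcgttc
Wnt3, chr11:103773925-103774224, plus strand: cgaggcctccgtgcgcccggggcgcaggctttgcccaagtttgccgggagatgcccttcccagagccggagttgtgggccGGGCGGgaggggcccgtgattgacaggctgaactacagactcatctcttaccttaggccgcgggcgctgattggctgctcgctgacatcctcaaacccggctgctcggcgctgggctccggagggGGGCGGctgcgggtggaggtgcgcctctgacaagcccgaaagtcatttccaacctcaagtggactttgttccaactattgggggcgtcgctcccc
Gsc, chr12:104473187-104473486, minus strand: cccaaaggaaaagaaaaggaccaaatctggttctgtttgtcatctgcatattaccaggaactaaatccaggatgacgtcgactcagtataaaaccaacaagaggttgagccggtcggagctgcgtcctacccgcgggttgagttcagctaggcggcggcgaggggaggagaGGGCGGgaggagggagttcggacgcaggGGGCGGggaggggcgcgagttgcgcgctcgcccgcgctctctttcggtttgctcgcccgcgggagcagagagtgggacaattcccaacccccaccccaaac
T held 1 TCF/LEF core, 234 bases before the annotated start, and 2 GC boxes. Evx1 held 1 T-box core, and Wnt3 and Gsc held 2 GC boxes each. Of the other members with an entry, Mesp1 held 2 TCF/LEF cores and 1 T-box core, Nkx1-2 held 2 GC boxes, and Eomes and Cdx2 held none of the 5. Among all 32851 promoter windows, 16.0% held CTTTGA, 19.0% GGTGTG, 35.7% GGGCGG, 14.9% CCGGAA and 3.38% ATCCACA. The matches are descriptions of these windows only.

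The T-box factors T and Eomes were both higher with FGF4, and higher at 50 than at 5 ng/ml. T, the founding T-box gene and a regulator of posterior mesoderm (ENSMUSG00000062327, mm10 chr17:8434423-8442496, plus strand), gave 120, 716 and 990 UMIs. Its level without FGF4 was 2.81 CPM (2.33 to 3.36). With the low dose it was 9.52 CPM (8.84 to 10.2), and with the high dose 12.2 CPM (11.4 to 12.9). The intervals of the 3 levels did not overlap. T was thus 3.39-fold higher (2.79 to 4.15) at 5 ng/ml and 4.33-fold higher (3.58 to 5.28) at 50 ng/ml than without ligand. Between the FGF4 doses it was 1.28-fold higher (1.16 to 1.41) at 50 than at 5 ng/ml. T UMIs were clumped in cells, with a variance over mean of thinned UMIs of 2.64 and 3.25 at 5 and 50 ng/ml. The intervals are therefore too narrow, and the step from 5 to 50 ng/ml is less sure than they show. Eomes, which acts in the streak and also in trophectoderm (ENSMUSG00000032446, chr9:118478212-118486132, plus strand), gave 101, 520 and 771 UMIs. Those were 2.36 CPM (1.93 to 2.87), 6.92 CPM (6.33 to 7.54) and 9.47 CPM (8.81 to 10.2), again without overlap. The ratios were 2.93 (2.36 to 3.66) at 5 ng/ml and 4.01 (3.25 to 4.98) at 50 ng/ml, with 1.37 (1.22 to 1.53) between the FGF4 doses.

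**Figure D1:**
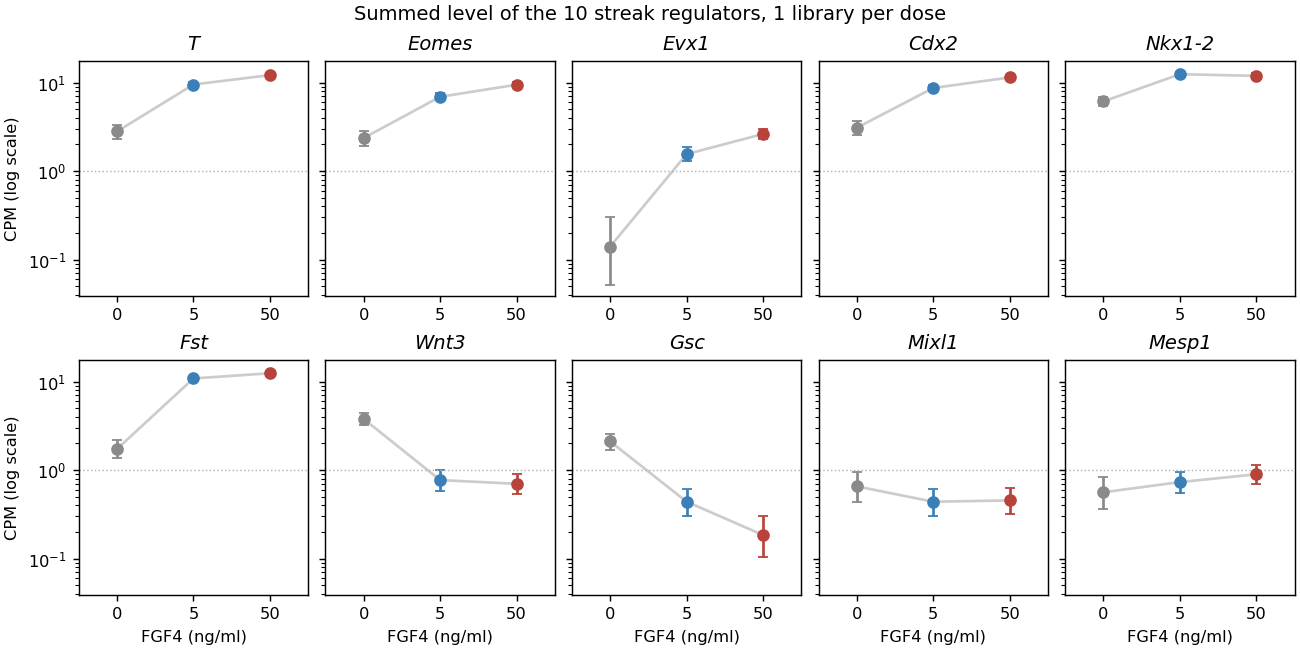
Summed level of each streak regulator (CPM, log scale) at 0, 5 and 50 ng/ml FGF4, 1 library per dose, with 95% Poisson intervals and a dotted line at 1 CPM. T, Eomes, Evx1, Cdx2, Nkx1-2 and Fst lie higher with FGF4, Wnt3 and Gsc lie lower, and Mixl1 and Mesp1 stay under 1 CPM at every dose.

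The posterior homeobox genes also lay above their level without FGF4, with Evx1 nearly unseen in its absence. Evx1, an even-skipped relative expressed in the posterior streak (ENSMUSG00000005503, chr6:52313498-52318378, plus strand), gave 6 UMIs in 6 cells without FGF4, 117 UMIs at 5 ng/ml and 214 UMIs at 50 ng/ml. Its levels were 0.140 CPM (0.0515 to 0.306), 1.56 CPM (1.29 to 1.87) and 2.63 CPM (2.29 to 3.01). The ratio was 11.1 (4.94 to 30.8) at 5 ng/ml and 18.7 (8.46 to 51.6) at 50 ng/ml, wide because of the 6 UMIs, and 1.69 (1.34 to 2.13) between the FGF4 doses. Evx1os, an antisense gene overlapping Evx1, gave 4, 22 and 38 UMIs, and whether its reads were told from Evx1 by strand is not stated in the labels or headers.

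Cdx2, a caudal homeobox gene of the posterior embryo and of trophectoderm (ENSMUSG00000029646, chr5:147300805-147307270, minus strand), gave 132, 654 and 932 UMIs. These were 3.09 CPM (2.58 to 3.66), 8.70 CPM (8.04 to 9.39) and 11.4 CPM (10.7 to 12.2), with no overlap between doses. Cdx2 was 2.82-fold higher (2.33 to 3.42) at 5 ng/ml, 3.71-fold higher (3.09 to 4.48) at 50 ng/ml, and 1.32-fold higher (1.19 to 1.46) at 50 than at 5 ng/ml. Nkx1-2, a homeobox gene of the caudal epiblast (ENSMUSG00000048528, chr7:132594878-132599637, minus strand), gave 262, 936 and 971 UMIs. Its levels of 6.13 CPM (5.41 to 6.92), 12.4 CPM (11.7 to 13.3) and 11.9 CPM (11.2 to 12.7) were higher with FGF4, and those at the 2 FGF4 doses overlapped. The ratio was 2.03 (1.77 to 2.34) at 5 ng/ml and 1.95 (1.70 to 2.24) at 50 ng/ml, with 0.958 (0.875 to 1.05) between them. Nkx1-2 lies within the annotated span of Fgfr2 on the same strand, so reads from shared sequence are uncertain. Fgfr2 itself went the other way, with 11.7, 3.95 and 2.94 CPM.

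Fst encodes follistatin, a secreted protein that binds activin and is made in the streak (ENSMUSG00000021765, chr13:114452290-114458951, minus strand). It gave 74, 817 and 1011 UMIs, or 1.73 CPM (1.36 to 2.17), 10.9 CPM (10.1 to 11.6) and 12.4 CPM (11.7 to 13.2). Most of its difference was present at the low dose, with a ratio of 6.27 (4.94 to 8.07) at 5 ng/ml, 7.17 (5.66 to 9.21) at 50 ng/ml and 1.14 (1.04 to 1.25) between these doses.

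The streak inducer Wnt3 and the anterior streak gene Gsc lay on the opposite side. Wnt3, the Wnt ligand needed for streak formation (ENSMUSG00000000125, chr11:103774150-103817957, plus strand), gave 162, 58 and 57 UMIs. Its level was 3.79 CPM (3.23 to 4.42) without FGF4, and 0.771 CPM (0.586 to 0.997) and 0.7002 CPM (0.530 to 0.907) with it. At the low dose Wnt3 was 4.91-fold lower (3.62 to 6.75). At the high dose it was 5.42-fold lower (3.98 to 7.46), and the levels at the 2 FGF4 doses overlapped. Gsc, a homeobox repressor of the anterior streak and organiser (ENSMUSG00000021095, chr12:104471209-104473330, minus strand), gave 90, 33 and 15 UMIs. The levels were 2.11 CPM (1.69 to 2.59), 0.439 CPM (0.302 to 0.616) and 0.184 CPM (0.103 to 0.304). The low dose had 4.80-fold less Gsc than no ligand (3.19 to 7.39), and the high dose 11.4-fold less (6.58 to 21.3). Between the FGF4 doses the fold was 2.38 (1.26 to 4.72), again lower at the high dose.

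Mixl1 and Mesp1 stayed under 1 CPM in all 3 libraries. Mixl1, a paired-type homeobox gene of mesendoderm (ENSMUSG00000026497, chr1:180693043-180697034, minus strand), gave 28, 33 and 37 UMIs, or 0.655, 0.439 and 0.454 CPM. Its ratio at 50 ng/ml to no ligand was 0.694 (0.413 to 1.18). Mesp1, a basic helix-loop-helix factor of early mesoderm (ENSMUSG00000030544, chr7:79792241-79793788, minus strand), gave 24, 55 and 73 UMIs, or 0.562, 0.732 and 0.897 CPM, with a ratio of 1.60 (0.995 to 2.65). Both intervals included 1. For Mesp1 this turned on the scaling, since the log2 ratio was 0.67 (-0.01 to 1.40) as reported but 0.71 (0.03 to 1.44) with TMM and 0.72 (0.03 to 1.45) with median-of-ratios scaling.

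A gene was counted where its CPM differed at least 2-fold and reached 1 CPM in the higher library. At 5 ng/ml against no ligand 6 of the 10 regulators were counted higher, where 3.29% of 12602 genes were, and 2 lower, where 4.09% were (7.39% in either direction). At 50 ng/ml 5 were counted higher, against 3.86% of 12612 genes, and 2 lower, against 5.99% (9.86% in either direction). Nkx1-2, at 1.95-fold, was just under the limit there, and with median-of-ratios scaling, at a log2 ratio of 1.0009, it passed and the count was 6. Between 50 and 5 ng/ml none of the 6 that reached 1 CPM was counted, where 0.382% of 12299 genes were higher and 0.39% lower (0.772% in either direction). Mixl1 and Mesp1 did not reach 1 CPM in any library, and Wnt3 and Gsc did so only without FGF4, as Evx1 did only with it. Without the level limit Gsc was also at least 2-fold lower at 50 than at 5 ng/ml. Among the genes compared at 50 ng/ml with no ligand, Evx1 ranked number 22 from the top and Gsc number 16 from the bottom. The comparisons with 5 and 50 ng/ml share the library without ligand. In each of them 8 of the 10 regulators reached 1 CPM, the limit that the shares of all genes also required. The members were chosen with earlier results of these data known, which by itself can set their counts, here and below, apart from the shares of all genes.

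**Figure D2:**
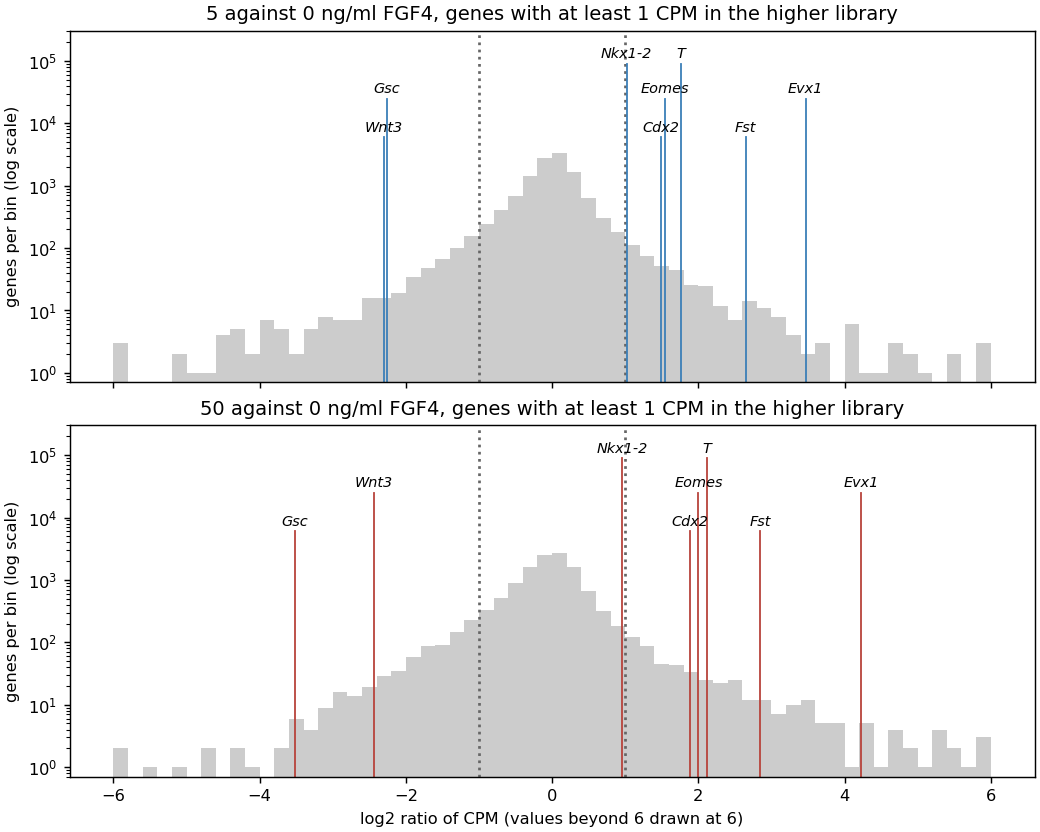
Log2 ratio of CPM at 5 (upper) and 50 ng/ml (lower) FGF4 to the level without FGF4, as the number of genes per bin (log scale) for genes whose higher level reached 1 CPM. Coloured lines mark the 8 regulators that reached 1 CPM and dotted lines mark 2-fold, with 6 regulators past 2-fold higher at 5 ng/ml, 5 at 50 ng/ml and 2 past 2-fold lower at both.

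To compare cells at equal depth, each cell was thinned to 40000 UMIs, leaving 360, 706 and 793 cells. The share of cells with at least 1 T UMI was then 8.89% (6.16 to 12.3), 23.1% (20.03 to 26.4) and 25.9% (22.8 to 29.0) in order of dose, against 21.2%, 34.1% and 35.1% without thinning. Eomes was present in 6.11%, 19.4% and 24.0% of thinned cells, against 16.6%, 30.1% and 34.5% without thinning. Fst was present in 3.61%, 25.9% and 27.1%, against 15.3%, 36.4% and 36.9%. For T, Eomes and Fst the shares at the 2 FGF4 doses had overlapping intervals, and both lay above the share without FGF4.

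Cdx2 was present in 11.1% (8.06 to 14.8), 22.8% (19.8 to 26.1) and 29.4% (26.2 to 32.7) of thinned cells, against 20.1%, 31.8% and 39.1% without thinning. Its shares at the 3 doses did not overlap. Evx1 was present in 1 of 360 cells without FGF4, or 0.278% (0.00703 to 1.54), and in 5.67% and 9.21% with it (1.61%, 9.73% and 13.7% without thinning). Nkx1-2 was present in 19.7%, 32.3% and 33.2% of thinned cells (38.1%, 46.1% and 43.8% without thinning, where the interval at 0 overlapped those at 5 and 50 ng/ml). Wnt3 went from 13.3% (10.0 to 17.3) to 3.68% and 3.03%, against 25.2%, 5.38% and 4.92% without thinning. Gsc went from 6.39% to 1.98% and 1.01%, against 18.8%, 3.55% and 1.33%. Mixl1 stood at 3.33%, 2.27% and 1.77%, and Mesp1 at 2.5%, 4.11% and 3.03%, with overlapping intervals.

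At 5 ng/ml against no ligand 6 regulators had a larger share of cells with intervals apart, where 8.53% of 12602 genes had, and 2 a smaller share, where 9.4% had. At 50 ng/ml 6 had a larger share by that measure, where 10% of 12612 genes had (5 without thinning, Nkx1-2 being the one lost), and 2 a smaller share, where 13.7% had. Without thinning Nkx1-2 was lost at 5 ng/ml as well, with intervals of 33.1% to 43.2% without FGF4 and 42.8% to 49.5% at that dose. Cdx2 was the 1 regulator with a larger share at 50 than at 5 ng/ml by that count, where 1.24% of genes had, and 0 had a smaller one, where 2.86% had. No cell type lacking these genes was available to measure the share that free RNA would give, and its part was not tested.

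**Figure D3:**
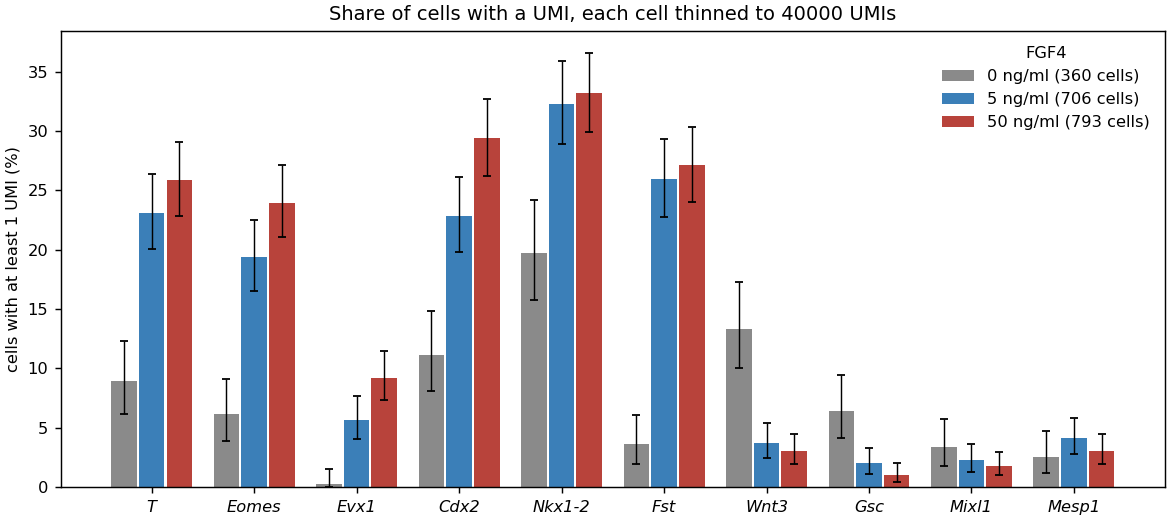
Percent of cells with at least 1 UMI of each regulator after thinning to 40000 UMIs, for 0, 5 and 50 ng/ml FGF4 (bars), with 95% exact binomial intervals. T, Eomes, Evx1, Cdx2, Nkx1-2 and Fst are present in more cells with FGF4, whereas Wnt3 and Gsc are present in fewer.

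The spread of transcripts over cells was read in 2 ways. The Fano factor (variance over mean of thinned UMIs, 1 for even random sampling) of T was 1.21, 2.64 and 3.25 in order of dose. That of Fst was 1.11, 3.23 and 3.58, and that of Eomes 1.48, 1.43 and 1.97. Cdx2 stood at 1.26, 1.85 and 2.16 and Nkx1-2 at 1.22, 1.55 and 1.44. The 5% of cells with most T UMIs held 63.2% (46.0 to 78.2), 48.4% (42.4 to 54.4) and 47.6% (42.4 to 52.8) of them in order of dose. Without FGF4 only 32 of 360 cells had T, with 38 UMIs, so the richest 18 had to hold a large share. These shares therefore cannot tell whether concentration differed between doses. Mean T UMIs per cell were 0.106, 0.395 and 0.472, so the Fano factors too were not compared at equal means. For Nkx1-2 the shares were 41.1%, 32.6% and 29.8%.

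A few cells held many T transcripts. Before thinning, the most T UMIs in 1 cell were 4, 36 and 69 at the 3 doses. No cell without FGF4 had 10 or more, whereas 8 cells at 5 ng/ml and 15 cells at 50 ng/ml did, with 17.9% and 28.9% of their library's T UMIs. None of these cells was called a doublet. The richest cell at 50 ng/ml had 69 T, 10 Fst, 5 Cdx2, 10 Nkx1-2 and 0 Eomes UMIs. The richest at 5 ng/ml had 36 T, 45 Fst, 1 Cdx2, 4 Nkx1-2 and 0 Eomes UMIs. Of the 15 such cells at 50 ng/ml, 14 had Cdx2, 13 Nkx1-2, 11 Eomes, 10 Fst and 7 Evx1, while 2 had Wnt3 and 0 had Gsc. These counts are not thinned, and the 15 cells were deep, with 2109090 UMIs together against a library median of 87334 per cell, which by itself raises the chance of finding any gene. Without the 1% of cells with most UMIs of the gene in each library, T at 50 ng/ml was still higher, with a log2 ratio to no ligand of 1.89 against 2.11 with them.

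At 50 ng/ml the other regulators that were higher with FGF4 were present in a larger share of cells with T than of cells without it. Among the 205 thinned cells with T, 39.5% (32.8 to 46.6) had Cdx2, against 25.9% (22.4 to 29.6) of the 588 without T. For Nkx1-2 the shares were 43.4% (36.5 to 50.5) and 29.6% (25.9 to 33.5), and for Fst 36.6% (29.99 to 43.6) and 23.8% (20.4 to 27.5). For Eomes they were 32.7% (26.3 to 39.6) and 20.9% (17.7 to 24.4). Under a second seed the Eomes shares were 30.1% (23.8 to 37.0) and 23.1%, so the gap between them depended on the random thinning. Evx1 was present in 13.2% (8.86 to 18.6) and 7.82% (5.78 to 10.3), which overlap. Both T and Eomes were present in 67 cells, where independent presence would give 49.1, a ratio of 1.36. Under the second seed this ratio was 1.21, and that of T and Cdx2 went from 1.34 to 1.16. It went from 1.35 to 1.23 for T and Fst, from 1.43 to 1.23 for T and Evx1, and from 1.31 to 1.29 for T and Nkx1-2. The gap for Cdx2 thus depended on the random thinning at least as much as that for Eomes.

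The same pairs were read at 5 ng/ml. Of 163 cells with T, 33.1% (26.0 to 40.9) had Cdx2 against 19.7% (16.4 to 23.3) of those without, and 42.3% (34.6 to 50.3) had Nkx1-2 against 29.3% (25.5 to 33.3). Fst was present in 32.5% (25.4 to 40.3) and 23.9% (20.4 to 27.8). T and Eomes were together in 31 cells, where independence would give 31.6. That last ratio, 0.980, depended on the random thinning, with 1.40 under a second seed and 1.38 without thinning. Without FGF4 0 of the 32 cells with T had Eomes, where independence would give 1.96 cells. Whether joint presence differed between the doses was not tested.

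**Figure D4:**
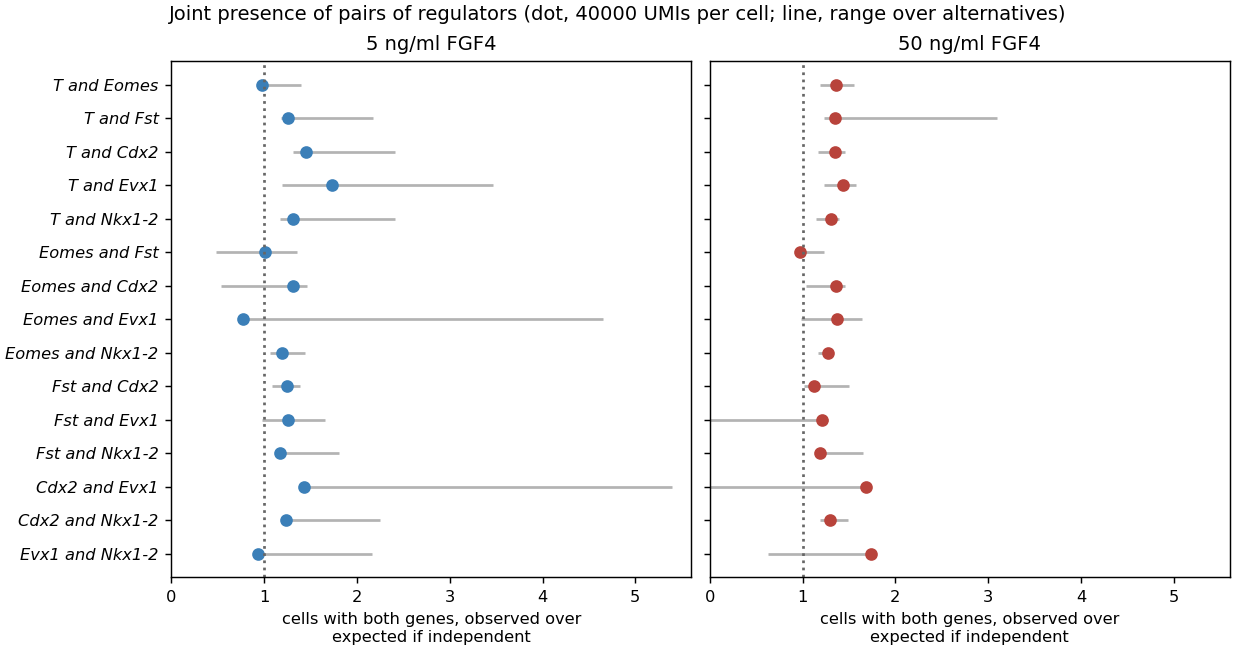
Number of cells with both genes over the number expected if presence were independent, for the 15 pairs of the 6 regulators that were higher with FGF4 at 5 and 50 ng/ml. Dots are the values at 40000 UMIs per cell and lines the range over 7 other settings, and all 5 pairs with T lie above 1 in every setting at 50 ng/ml.

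Of the 15 pairs among T, Eomes, Fst, Cdx2, Evx1 and Nkx1-2, 14 were above 1 at 50 ng/ml, with 10 of them above 1 in all 7 alternative settings, and 12 and 9 at 5 ng/ml. How often pairs of other genes of like level lie above 1 was not computed, so these counts cannot be called particular to the regulators. The settings that only leave out some cells reuse the same thinned counts and are not separate draws. Evx1 and Nkx1-2 had a ratio of 1.73 at 50 ng/ml, and 57.5% (45.4 to 69.0) of the 73 cells with Evx1 had Nkx1-2 against 30.7% (27.3 to 34.2) of the rest. Cdx2 and Evx1 had a ratio of 1.68. Neither pair stayed above 1 in every setting, with ranges of 0.629 to 1.74 and 0 to 1.69, and under a second seed they stood at 1.35 and 1.62. Eomes and Fst were together in 50 cells against 51.5 for independence, a ratio of 0.971. The correlation of log2 UMIs across cells was weak for every pair, at most 0.20 in both FGF4 libraries.

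Most cells held few of the 10 regulators at this depth. Without FGF4 47.2% of cells had none, against 25.8% at 5 ng/ml and 22.8% at 50 ng/ml. At least 4 were present in 4 of 360 cells (1.11%) without FGF4, 38 of 706 (5.38%) at 5 ng/ml and 74 of 793 (9.33%) at 50 ng/ml. Independent presence at the observed shares would give 0.345%, 3.15% and 4.54%. Cells with none were also more common than independence would give at 50 ng/ml, 22.8% against 16.1%. The largest number in 1 cell was 6, in 3 cells at 50 ng/ml.

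**Figure D5:**
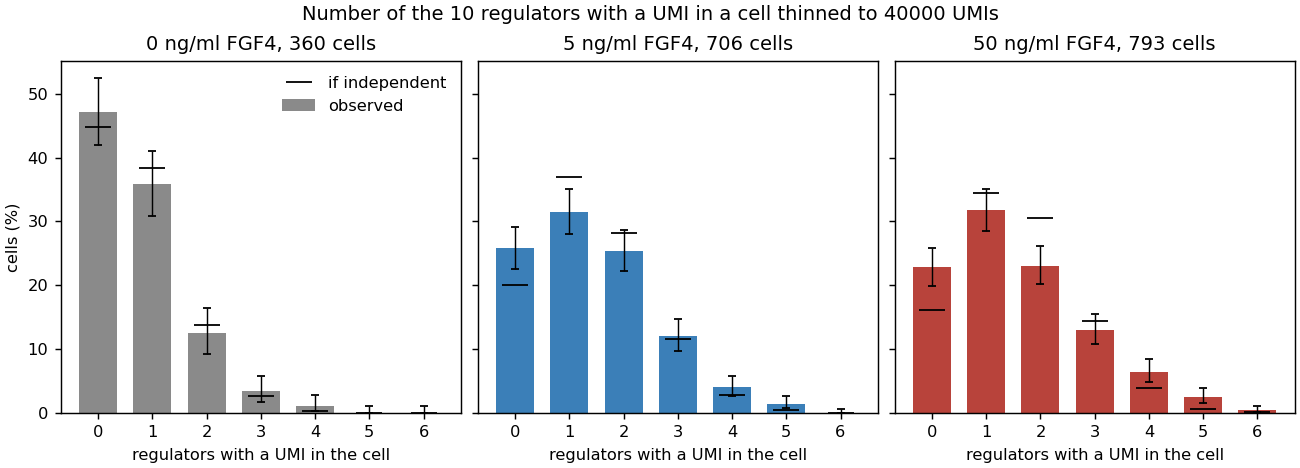
Percent of cells by the number of the 10 regulators with a UMI, after thinning to 40000 UMIs, with 95% exact binomial intervals (bars) and the percent that independent presence would give (dashes). At 50 ng/ml both the cells with none and those with 4 or more exceed the dashes.

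Other genes were read in cells with and without T at equal depth, and those named in this and the next paragraph were chosen after their values were seen. Wnt8a, a Wnt ligand of the posterior streak, was 1.96-fold higher (1.46 to 2.63) in cells with T at 50 ng/ml and 1.93-fold higher (1.34 to 2.76) at 5 ng/ml. Cdx1 was 1.46-fold (1.34 to 1.59) and 1.39-fold (1.25 to 1.53) higher at these doses, and the beta-catenin target Sp5 1.48-fold (1.31 to 1.67) and 1.44-fold (1.26 to 1.64). Of the 13 caudal epiblast genes with 30 or more UMIs, 6 were higher and 0 lower with intervals off 1 at 50 ng/ml, where 5.88% of all genes were higher and 5.21% lower. At 5 ng/ml 5 were higher and 1 lower, where 6.39% and 5.49% of all genes were.

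Nodal and its inhibitors differed in opposite directions between these cells. The Nodal inhibitors Lefty1 and Lefty2 were 1.43-fold (1.25 to 1.63) and 1.39-fold (1.097 to 1.74) higher in cells with T at 50 ng/ml, and 1.68-fold and 1.56-fold higher at 5 ng/ml. Nodal itself was 1.59-fold lower at the high dose (1.36 to 1.88), and the fold at the low dose was 1.53 (1.30 to 1.82), also lower. Without FGF4 Lefty1 was likewise 1.68-fold higher (1.43 to 1.95) in the 32 cells with T, while Nodal had a ratio of 1.27 (0.971 to 1.64). Naive pluripotency genes were lower in cells with T, by small amounts, in 7 of 14 genes at 50 ng/ml and 10 of 15 at 5 ng/ml with intervals off 1. Of all genes 5.21% and 5.49% were lower at these doses. None of the naive genes was higher, where 5.88% and 6.39% of all genes were. Zfp42 averaged 17.1 UMIs in cells with T and 20.3 in cells without it at 50 ng/ml, and Nanog 3.69 and 4.32. Pou5f1, at 15.1 and 15.4 UMIs, had an interval that included equality. Of 13 ERK targets 5 were higher and 1 lower in cells with T with intervals off 1 at 50 ng/ml, and 3 and 1 at 5 ng/ml. Of all genes 5.88% were higher and 5.21% lower at 50 ng/ml, and 6.39% and 5.49% at 5 ng/ml. Among these targets Etv4 averaged 4.22 against 3.31 UMIs and Spry4 1.27 against 1.26 at 50 ng/ml. Median depth before thinning was 98985 UMIs in cells with T and 92709 in those without, and 10 and 16 of them were called doublets. The part of doublets in these differences was not tested.

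Across cells at 50 ng/ml, the genes most like the summed regulators were Lef1, Oat, Cdx1, Grsf1, Tcf15, Lin28a, Gbx2 and Sox11, in that order. Predicted genes, ribosomal protein genes and the members themselves were left out of this ranking. Likeness was Pearson's r of log2(thinned UMIs + 1) over 793 cells among the 8634 other genes with at least 5 CPM. It was 0.334 for Lef1, a partner of beta-catenin, 0.329 for Oat, an ornithine aminotransferase, 0.285 for Cdx1 and 0.230 for Sox11. Over the 706 cells at 5 ng/ml, Grsf1 ranked number 1 with 0.325, Lef1 number 2 with 0.283 and Cdx1 number 3 with 0.238, while Gbx2 ranked number 31. Over 360 cells without FGF4 these 8 genes had r from -0.00499 to 0.112. All these correlations were weak, and genes of 1 cell share its library and state.

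Among the relatives of the members, 8 of 23 reached 1 CPM at 50 ng/ml or without ligand, with 3 higher and 2 lower at 50 ng/ml, where 3.86% of all genes were higher and 5.99% lower. Cdx1 was 30.7, 66.6 and 78.5 CPM at the 3 doses, and Cdx4, named after its values were seen, had 3 UMIs without FGF4 and 1.22 and 2.03 CPM with it. The 3 caudal genes Cdx1, Cdx2 and Cdx4 thus shared a direction. The T-box gene Tbx3, a naive factor in stem cells, was 116, 60.9 and 47.2 CPM, opposite to T and Eomes. The median log2 ratio of the list was 0.53, against -0.02 over all genes.

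Signals that induce the streak in the embryo, and their inhibitors, were on both sides. Of 25 such genes at 1 CPM, 6 were higher and 5 lower at 50 ng/ml, against 3.86% and 5.99% of all genes, and the median log2 ratio was -0.17. Wnt8a had 0 UMIs without FGF4 and 393 and 520 UMIs with it, or 5.23 and 6.39 CPM. Against a floor of 3 UMIs in the library without ligand, these are lower bounds, at least 74.4-fold higher for the low dose and, for the high dose, at least 91.0-fold higher. Bmp4, which signals to the posterior epiblast, was 4.45, 17.7 and 26.7 CPM, and Wnt5b 2.36, 7.81 and 9.08 CPM. Sfrp1, a Wnt-binding inhibitor, was 47.5, 13.1 and 8.21 CPM. Wnt3 was therefore lower where Wnt8a and Wnt5b were higher.

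Of 19 genes of the TCF and beta-catenin pathway at 1 CPM, 1 was higher, Lef1, and 2 were lower at 50 ng/ml, with a median of -0.07. Tcf7l1, a repressor among the TCF factors, was 113, 62.9 and 53.7 CPM. Of 13 caudal epiblast genes 5 were higher and 1 lower (median 0.79). Of 7 nascent mesoderm genes 2 were higher and 0 lower (median 0.39), and 13 of that list of 20 did not reach 1 CPM. Of 5 anterior streak, node and endoderm genes 2 were higher and 2 lower (median -0.47), with Otx2, also a formative factor, at 1.87, 5.81 and 13.97 CPM and Lefty1 at 99.7, 62.1 and 30.7 CPM. These counts and medians stand beside 3.86% higher, 5.99% lower and a median of -0.02 for all genes.

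Targets of ERK, the kinase downstream of FGF receptors, had a median of 1.59 at 50 ng/ml, with 8 of 14 higher and 2 lower. Over all genes the median was -0.02, with 3.86% higher and 5.99% lower. Spry4, a feedback inhibitor of FGF signalling, was 0.0702, 14.1 and 31.1 CPM, and the ETS factor Etv4 1.17, 49.8 and 88.9 CPM. Of 14 formative pluripotency genes 9 were higher and 0 lower (median 1.21), with Utf1 at 45.5, 281 and 354 CPM. Of 15 naive genes 0 were higher and 7 lower (median -0.95), with Spic at 10.4, 1.09 and 0.381 CPM and Prdm14 at 12.4, 3.43 and 2.25 CPM.

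Eomes and Cdx2 are also trophectoderm genes, so the other markers of that lineage were read. Of 14, 8 reached 1 CPM in each library, their summed level was 80.2, 56.9 and 49.7 CPM, and 1 was higher and 2 lower at 50 ng/ml. Elf5 had no UMI in either FGF4 library. Tfap2c was 46.9, 31.8 and 26.5 CPM. The 14 primitive endoderm markers summed to 136, 88.1 and 85.2 CPM, and of the 8 at 1 CPM 1 was higher and 2 lower at 50 ng/ml. Lama1 was 11.3, 2.35 and 1.60 CPM, and Gata6, named after its values were seen, 0.351, 0.0665 and 2.19 CPM. The 8 neuroectoderm markers summed to 125, 42.0 and 38.1 CPM and the 9 fibroblast markers to 3.59 to 3.83 CPM, with Col3a1 and Postn at 0 UMIs throughout. The summed markers of trophectoderm, primitive endoderm and neuroectoderm were lower in the libraries where T, Eomes and Cdx2 were higher. Each sum rested largely on 1 gene. Tfap2c was 46.9 of the 80.2 CPM of trophectoderm without FGF4. In the 328 thinned cells without FGF4 or T, Tubb3 had 1418 UMIs against 145 for Nes, and Sparc 1108 against 301 for Lamb1. Of the trophectoderm markers at 1 CPM, 7 of 8 were within 2-fold at 5 ng/ml and 5 of 8 at 50 ng/ml. Whether cells of these lineages were present was not tested.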

How the data were processed

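The deposited matrices held counts of UMIs per gene and cell barcode, as Cell Ranger 4.0.0 output per the file headers, aligned to mm10 per the submitters' processing notes. The rule for calling cells, the annotation release and strand use are not given in the sources used here. The matrices were used as deposited, with 42726514, 75184072 and 81409975 UMIs in all.

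UMIs were summed per library and scaled to totals (CPM). Levels carried exact Poisson, shares exact binomial (Clopper-Pearson) and ratios conditional binomial 95% intervals. These cover counting error only. A sum of 0 was set to a floor of 3 UMIs, which is 0.0702, 0.0399 and 0.0369 CPM. Cells were thinned without replacement with numpy 2.4.6, and cells under 40000 UMIs were left out. Doublets were called with Scrublet in scanpy 1.11.5 (12, 7 and 26 cells) and kept in the main values. No clusters were made. Gene positions came from GENCODE M21 (GRCm38). Ratio intervals, calls and joint presence were tested on simulated data.

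Named genes were the 10 members, up to 4 genes per list with the largest log2 ratio at 50 ng/ml among those at 5 CPM, antisense partners and the 8 most like genes, with exceptions marked. Members, gene lists and tests were chosen with earlier results of these data known. Alternatives were TMM (edgeR 4.0.16) and median-of-ratios (DESeq2 1.42.0) scaling, the mean of each cell's share, totals that omit mitochondrial and ribosomal protein genes, other level and fold limits, a cell filter, doublet removal, other depths and another seed. Those that left out the cells richest in a gene were added after the data were seen.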

Additional observations from a re-analysis of the deposited data

How the results depend on the processing

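No regulator past 2-fold in the reported values changed direction under any alternative tried. Under the planned limit of 5 CPM the 2 lower regulators were no longer considered, which gives 0 lower at 5 and at 50 ng/ml. Evx1, the regulator with the largest ratio, was not considered there either, leaving 5 higher at 5 ng/ml and 4 at 50 ng/ml. Under 20 CPM no regulator was considered, with 0 higher and 0 lower at either dose. Between 50 and 5 ng/ml, 1 regulator (Gsc) was lower with no level limit and 1 (Evx1) higher at a fold limit of 1.5. Thinning to 7000 UMIs left 1 regulator with a smaller share of cells at 50 ng/ml. It gave 8.33% of T cells with Eomes, against 44.4% without thinning, and 79.2% of T UMIs in the richest 5% of cells, and the cause was not tested. At that depth 6.70% of cells at 50 ng/ml had T, against 35.1% without thinning. Without the 1% of cells with most UMIs of the gene, the log2 ratio of Gsc was -5.61 at 50 ng/ml against no ligand and -2.99 between the FGF4 doses, because few of its 15 UMIs were left. Evx1 at 50 ng/ml ranged on the log2 scale from 3.80 to 5.50 and T from 1.86 to 2.16 over all alternatives. Of the recomputed summary values 82 stayed close to the reported one and 12, given above, did not. For single-gene ratios these numbers were 326 and 4. Beside both Gsc values the 4 were, with the mean of each cell's share at 50 against 5 ng/ml, T at 0.16 (0.02 to 0.31) against 0.35 and Nkx1-2 at -0.21 (-0.34 to -0.08) against -0.06. There Fst was 0.09 (-0.05 to 0.23), which includes equality. Over all genes, 249 were higher and 327 lower at 50 ng/ml under 5 CPM, 113 and 116 under 20 CPM, 1459 and 3585 with no level limit, and 1018 and 1649 at a fold limit of 1.5, against 487 and 756 as reported. No paired analysis was possible because each dose was 1 library. With 1 library per dose, differences between culture wells or preparations cannot be told apart from dose. Depth limits Mixl1, Mesp1 and, with FGF4, Gsc, at 15 to 73 UMIs a library.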
